A study of Homo sapiens with 4 samples.

Results

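The genes described here code for the enzymes that hydroxylate and cross-link collagen, and for the chaperone that assists its folding. They are the prolyl 4-hydroxylase subunit genes P4HA2 and P4HA3, the lysyl hydroxylase genes PLOD1, PLOD2 and PLOD3, the lysyl oxidase genes LOX, LOXL1, LOXL2 and LOXL4, and SERPINH1. They were taken by name, through their Ensembl IDs, and all 10 were found among the 36525 genes of the deposited table. Their levels were compared between LM2 cells with knockdown of the splicing regulator hnRNPM, which binds RNA, and control LM2 cells, with 2 libraries in each group. LM2 is a clonal lung metastatic derivative of the breast cancer line MDA-MB-231, which has mesenchymal traits. Cells of all libraries were harvested 48 h after they were plated. The silencing agent is given as an shRNA in the growth protocol and as an siRNA elsewhere in the labels, and the treatment of the control cells was not given in the sources used here. The results concern 1 clonal line. Separate cultures behind the libraries of a group are not mentioned, so the p-values measure only the spread between these samples, and that spread may be technical. In bulk RNA, fewer cells of a type and less RNA per cell cannot be told apart.

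Collagen chains are modified in the endoplasmic reticulum before they leave the cell. Prolyl 4-hydroxylases, tetramers of catalytic alpha subunits (P4HA genes) and the beta subunit P4HB, make the hydroxyproline that keeps the triple helix stable. Lysyl hydroxylases (PLOD genes) make the hydroxylysine used for sugar attachment and for cross-links, and PLOD2 is the one known for hydroxylating the telopeptides at the chain ends. SERPINH1, also called HSP47, is a chaperone that binds the folded procollagen helix. Outside the cell, the copper-dependent lysyl oxidases (LOX genes) oxidise lysine and hydroxylysine so that fibres cross-link and stiffen. In breast cancer models LOX, LOXL2 and PLOD2 are known for their part in matrix stiffening and metastasis, and several of these genes are known targets of hypoxia-inducible factors.

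Promoter sequences are shown for 3 of the genes, whose windows hold a motif tied to a known input. PLOD2 and LOX are classic hypoxia-inducible genes, and SERPINH1 is a heat shock gene. Of the 10 genes, 8 had an entry among the RefSeq promoters (GRCh38.p14), and LOXL2 and P4HA3 did not. Each sequence is the 250 bases before the first listed start, 5′ to 3′ on the gene's strand. It lies at chr3:146161185-146161434 (minus strand) for PLOD2, at chr5:122078260-122078509 (minus strand) for LOX and at chr11:75562003-75562252 (plus strand) for SERPINH1. Capitals mark ACGTG, the core of a hypoxia response element, on either strand in PLOD2 and LOX, and GAANNTTC, a pair of inverted heat shock units that reads the same on both strands, in SERPINH1.
PLOD2: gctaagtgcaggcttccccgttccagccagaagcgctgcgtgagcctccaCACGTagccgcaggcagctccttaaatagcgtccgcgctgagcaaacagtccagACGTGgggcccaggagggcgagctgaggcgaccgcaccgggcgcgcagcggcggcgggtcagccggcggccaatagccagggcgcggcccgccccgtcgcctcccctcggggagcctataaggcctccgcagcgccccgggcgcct
LOX: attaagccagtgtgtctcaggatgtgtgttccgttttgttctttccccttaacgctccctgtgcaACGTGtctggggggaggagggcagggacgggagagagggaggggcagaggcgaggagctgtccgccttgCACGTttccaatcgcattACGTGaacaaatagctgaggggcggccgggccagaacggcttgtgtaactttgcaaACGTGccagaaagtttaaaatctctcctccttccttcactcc
SERPINH1: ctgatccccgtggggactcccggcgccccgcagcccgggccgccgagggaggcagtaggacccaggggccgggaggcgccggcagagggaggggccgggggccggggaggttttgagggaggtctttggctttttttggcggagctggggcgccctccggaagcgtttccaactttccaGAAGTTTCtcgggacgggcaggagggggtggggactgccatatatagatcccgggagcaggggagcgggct
ACGTG occurred 2 times in the PLOD2 and 4 times in the LOX window, and GAANNTTC 1 time in the SERPINH1 window. Over all 35116 listed promoters, 18.5% held ACGTG and 5.78% held GAANNTTC in a window of this length. At the first listed starts of PLOD1, P4HA2, PLOD3, LOXL4 and LOXL1 neither motif was present. A match describes the letters only and shows no binding.

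Levels are given as RPKM, reads scaled by gene length and by a read total. Genes with a value above 0 numbered 25668 to 27081 per library, and 16.5 M to 26.6 M reads per library were estimated from the steps of the low values. RNA of the target, HNRNPM (ENSG00000099783), stood at 88.6 and 102 RPKM in control and 11.5 and 12.95 RPKM in knockdown libraries, a 7.80-fold lower mean with no overlap. At the median gene the second library of each group was higher than the first (ratio 1.15 over 13619 tested genes in control, 1.11 over 13599 in knockdown, as deposited). The 10 genes followed this with median ratios of 1.14 and 1.11. Their SDs hold this shared shift, and tests are therefore also given after median-ratio scaling of the libraries where that changes a call. The 9 markers of the LM2 line, of which VIM was the most abundant, summed to 1350 to 1613 RPKM per library. Among them S100A4 rose 1.81-fold and CAV1 1.51-fold, SNAI2 fell 1.89-fold (limma adjusted p = 2.21e-06, 0.00197 and 7.81e-06), and the other 6 did not pass. With 1 library left out, the log2 fold change was 0.76 to 0.95 for S100A4, 0.49 to 0.69 for CAV1 and −0.99 to −0.74 for SNAI2. After median-ratio scaling 3 of the 9 rose and 6 fell, where 31.1% of all tested genes rose and 30.0% fell. For RPKM as deposited those shares were 14.7% and 21.8%. Of 5 hormone receptor and luminal markers in the table, PGR was listed at 0 in every library and ESR1 and FOXA1 were below 0.1 RPKM, whereas ERBB2 (8.59 and 7.74 RPKM in control and knockdown) and GATA3 (2.40 and 2.42 RPKM) were detected and did not pass.

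Knockdown cells had more RNA for the hydroxylase genes P4HA3, PLOD2 and P4HA2, for the chaperone gene SERPINH1 and for the cross-linking gene LOXL4, and less for PLOD1 and LOXL1. Thus 5 of the 10 genes rose, 2 fell and 3 did not pass (limma, Benjamini-Hochberg adjusted p below 0.05 over 13627 tested genes). The calls of P4HA2 and PLOD1 were the weakest (limma adjusted p = 0.0345 and 0.0111) and did not hold when any 1 library was left out. Among all tested genes 14.7% rose and 21.8% fell. A change of at least 1 on the log2 scale upward was called for LOXL4, P4HA3, PLOD2 and SERPINH1, that is 4 of 10, against 3.16% of tested genes, and downward for LOXL1, 1 of 10 against 4.46%. The control and knockdown libraries did not overlap for 8 of the 10 genes, against 66.8% of tested genes: 6 were higher in knockdown, against 28.0%, and 2 lower, against 38.8%. The median log2 fold change (knockdown minus control) was 0.42 over the 10 genes and −0.07 over all tested genes. All 10 passed the filter of a mean RPKM of at least 1, LOXL1 only through its control level. With median-ratio scaling 7 rose and 2 fell, where 31.1% of tested genes rose and 30.0% fell.

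**Figure D1:**
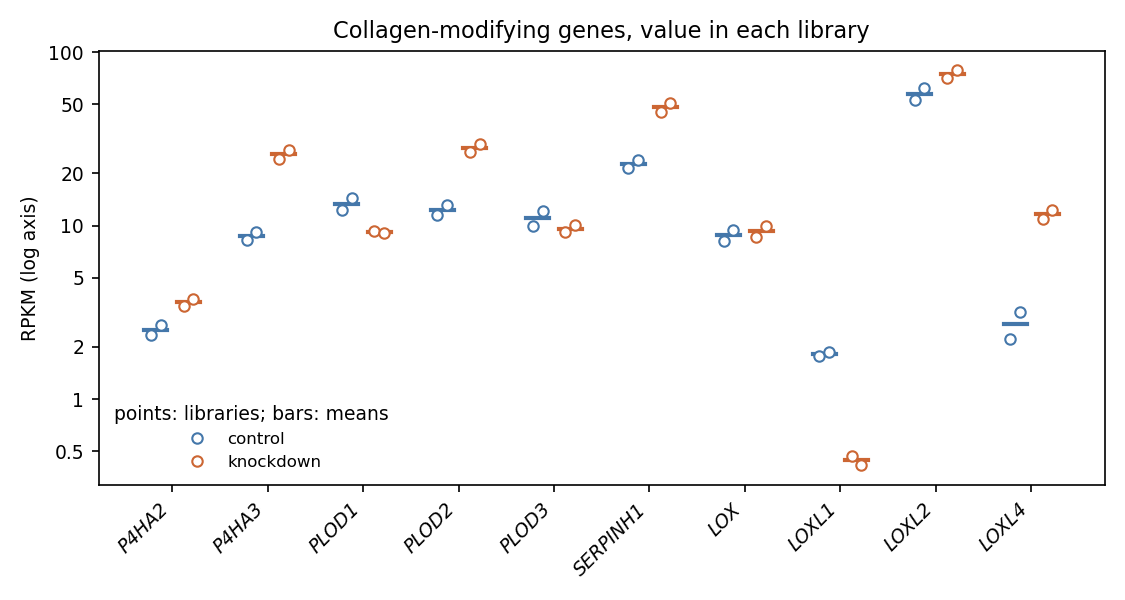
RPKM (log axis) of the 10 genes in each of the 4 libraries; points are libraries and bars are group means of 2 libraries. The knockdown points of P4HA3, PLOD2, SERPINH1 and LOXL4 lie above their control points, those of LOXL1 and PLOD1 below, and those of LOX and PLOD3 overlap them.

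P4HA3 codes for 1 of the 3 catalytic alpha subunits of collagen prolyl 4-hydroxylase and was the most raised of the hydroxylase genes. Its level was 8.26 and 9.22 RPKM in control and 24.1 and 27.4 RPKM in knockdown libraries. Both knockdown libraries were thus well above both control libraries, with means of 8.74 ± 0.678 and 25.7 ± 2.31 RPKM (SD, n = 2 in each group, here and below). The ratio of means was 2.94 and the log2 fold change 1.503 ± 0.18 (SE; limma adjusted p = 5.44e-16). Its exons share 166 bases with PPME1, a protein phosphatase methylesterase gene on the opposite strand, which rose from 37.0 to 101 RPKM (ratio 2.73, log2 fold change 1.44, limma adjusted p = 2.97e-15). Whether reads were counted by strand was not given in the sources used here. At PPME1's level these shared bases would hold 16.2% to 17.7% of the estimated P4HA3 reads in each library, and without them the ratio for P4HA3 was 2.99.

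P4HA2, the gene of another alpha subunit, rose less. It was at 2.34 and 2.68 RPKM in control and at 3.46 and 3.77 RPKM in knockdown libraries, without overlap. Its ratio was 1.44 and its log2 fold change 0.45 ± 0.18 (SE; limma adjusted p = 0.0345). This call did not hold when any 1 of the 4 libraries was left out (adjusted p from 0.0761 to 0.352), nor with empirical Bayes without a variance trend (0.0645). The antisense gene P4HA2-AS1, which shares 548 exon bases with it, changed by 0.42 (limma adjusted p = 0.045), and P4HA2 and its antisense partner cannot be told apart in those bases. P4HA1, the alpha subunit gene outside the set of 10, was at 10.1 ± 1.26 and 13.9 ± 0.569 RPKM (a log2 change of 0.45, limma adjusted p = 0.0323), and its call too was lost when any 1 library was left out (adjusted p from 0.0829 to 0.415). P4HB, the shared beta subunit, was far more abundant, at 106 ± 10.9 and 133 ± 10.2 RPKM (0.32, limma adjusted p = 0.122; median-ratio scaling gave 0.000371).

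The lysyl hydroxylase genes went different ways. PLOD2, the telopeptide lysyl hydroxylase gene, was at 11.5 and 13.2 RPKM in control libraries and at 26.6 and 29.5 RPKM in knockdown libraries. The knockdown level was 2.28 times the control level, a log2 fold change of 1.16 ± 0.17 (SE; limma adjusted p = 8.51e-10). PLOD1, which hydroxylates lysines within the helix, was at 12.3 and 14.5 RPKM in control and at 9.28 and 9.04 RPKM in knockdown libraries. All of its knockdown values lay below its control values, and it fell by 0.52 ± 0.18 on the log2 scale (SE; limma adjusted p = 0.0111), 1.46-fold lower. PLOD1 did not pass when any 1 of the 4 libraries was left out (adjusted p from 0.0521 to 0.288).

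PLOD3, which codes for a lysyl hydroxylase that also transfers sugars to hydroxylysine, was at 10.00 and 12.1 RPKM in control libraries and at 9.15 and 10.03 RPKM in knockdown libraries. Its groups overlapped, and the log2 fold change of −0.19 had a 95% interval from −0.53 to 0.15 (limma adjusted p = 0.42). It passed as lower with upper-quartile scaling (adjusted p = 0.030), under which 3 of the 10 genes and 4432 of 13627 tested genes fell. PLOD2 transcripts are known to exist with and without an alternative exon, and values per gene do not separate these forms.

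SERPINH1 was at 21.4 and 24.0 RPKM in control libraries and at 45.1 and 50.8 RPKM in knockdown libraries. Both knockdown libraries of the chaperone gene lay above both control libraries, with a ratio of 2.12 and a log2 fold change of 1.06 ± 0.17 (SE; limma adjusted p = 1.58e-08). After LOXL2 it was the most abundant of the 10 genes in both groups.

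LOXL4, a lysyl oxidase gene of low level in control cells, had the highest fold change of the 10. It was at 2.23 and 3.16 RPKM in control libraries and at 10.9 and 12.3 RPKM in knockdown libraries, from about 342 and 484 estimated reads against 1185 and 1336. Every knockdown value was above every control value, the ratio was 4.31 and the log2 fold change 1.94 ± 0.18 (SE; limma adjusted p = 4.10e-26). Its control libraries differed by a ratio of 1.42, the widest gap between libraries of a group among the 10 genes. An unnamed antisense gene, ENSG00000230928, shares 152 of its exon bases and also rose (0.807 to 2.81 RPKM), and at that gene's level these bases would hold at most 1.32% of the LOXL4 reads.

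LOXL1, known for its part in elastic fibre upkeep, went the other way. It was at 1.77 and 1.87 RPKM in control libraries and at 0.472 and 0.415 RPKM in knockdown libraries, from about 270 and 285 against 51 and 45 estimated reads. The knockdown values were thus all below the control values, 4.11-fold lower on average. On the log2(RPKM + 0.5) scale, where changes of low genes come out too small, it fell by 1.30 ± 0.21 (SE; limma adjusted p = 4.87e-09).

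LOXL2 was the most abundant of the 10 genes in both groups. It stood at 53.0 and 61.8 RPKM in control libraries and at 71.1 and 78.3 RPKM in knockdown libraries. The groups did not overlap and the ratio was 1.30, but the log2 fold change of 0.38 ± 0.17 (SE) did not pass (limma adjusted p = 0.0695). It passed with median-ratio scaling (0.46 ± 0.015, adjusted p = 0.000401), with upper-quartile scaling and with the replicate number as a block (adjusted p = 0.000489 and 0.00831).

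LOX, the founding member of the family, was at 8.19 and 9.37 RPKM in control libraries and at 8.65 and 9.89 RPKM in knockdown libraries. Its groups overlapped. The log2 fold change was 0.07, with a 95% interval from −0.27 to 0.42 (limma adjusted p = 0.778). After median-ratio scaling it was 0.15, with an interval from 0.063 to 0.24 (adjusted p = 0.020). LOX and PLOD2 both hold ACGTG in the windows printed above, and of these genes PLOD2 rose and LOX did not pass for RPKM as deposited. Changes of the fifth family member, LOXL3, are uncertain: it was at 2.25 ± 0.228 and 1.73 ± 0.109 RPKM (−0.30, limma adjusted p = 0.205; −0.23 and 0.0243 after median-ratio scaling), and the 625 exon bases it shares with HTRA2 on the opposite strand would hold 61.0% to 76.3% of its estimated reads at HTRA2's level.

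**Figure D2:**
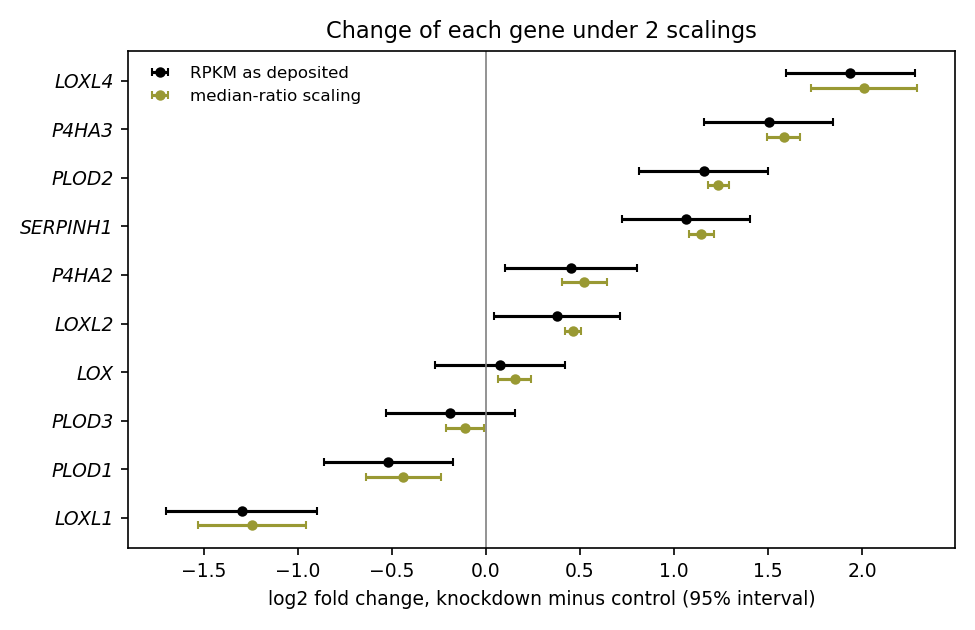
Log2 fold change (knockdown minus control) of the 10 genes with 95% intervals from limma, for RPKM as deposited and after median-ratio scaling. LOXL4 (1.94) and LOXL1 (−1.30) mark the ends, and the intervals of LOX and PLOD3 for RPKM as deposited span 0.

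Ranked by mean level, the control cells had LOXL2 first, then SERPINH1, PLOD1, PLOD2, PLOD3, LOX, P4HA3, LOXL4, P4HA2 and LOXL1. Neighbours in that order whose library ranges overlapped were PLOD1 and PLOD2, PLOD2 and PLOD3, LOX and P4HA3, and LOXL4 and P4HA2. In knockdown cells PLOD2, P4HA3 and LOXL4 followed SERPINH1, ahead of PLOD3, LOX and PLOD1. There, the ranges of PLOD2 and P4HA3, of PLOD3 and LOX, and of LOX and PLOD1 overlapped.

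The share of each gene in its family's summed RPKM was read within each library, where a shift of the whole library cancels. PLOD2 made up 34.0% and 33.1% of the lysyl hydroxylase RNA in control libraries and 59.1% and 60.8% in knockdown libraries. PLOD1 went from 36.4% and 36.5% to 20.6% and 18.6%, and PLOD3 from 29.6% and 30.4% to 20.3% and 20.6%. The near even split of the control cells was thus replaced by a majority of PLOD2, and the gap between groups exceeded the SDs (0.651 and 1.19 percentage points for PLOD2). The family's sum was 36.8 ± 4.23 RPKM in control and 46.8 ± 2.51 RPKM in knockdown cells.

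Among the alpha subunits, P4HA3 went from 41.6% and 40.3% to 58.6% and 60.2%, while P4HA1 went from 46.6% and 48.1% to 33.0% and 31.6%. P4HA2 stayed the smallest part, at 11.7% ± 0.0852 and 8.35% ± 0.0846, and its share was lower in the knockdown libraries although its own level was higher. Their sum was 21.4 ± 2.17 RPKM in control and 43.3 ± 3.10 RPKM in knockdown cells, a ratio of 2.02. Among P4HA2 and P4HA3 alone, P4HA3 held 77.7% ± 0.291 and 87.7% ± 0.307.

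Among the lysyl oxidases LOXL2 held most of the RNA in every library, 78.8% and 78.6% in control and 76.6% and 76.2% in knockdown. LOXL4 rose from 3.32% and 4.02% to 11.8% and 12.0% of the family, and passed LOX, which went from 12.2% and 11.9% to 9.32% and 9.63%. LOXL1 made up 2.51% ± 0.177 of the family in control and 0.456% ± 0.0742 in knockdown cells. No test was run on these shares, and an exact two-sided permutation test of 2 against 2 libraries, with 3 splits, cannot go below a p of 1 in 3. The direction of each share's difference was the same when any 1 library was left out.

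**Figure D3:**
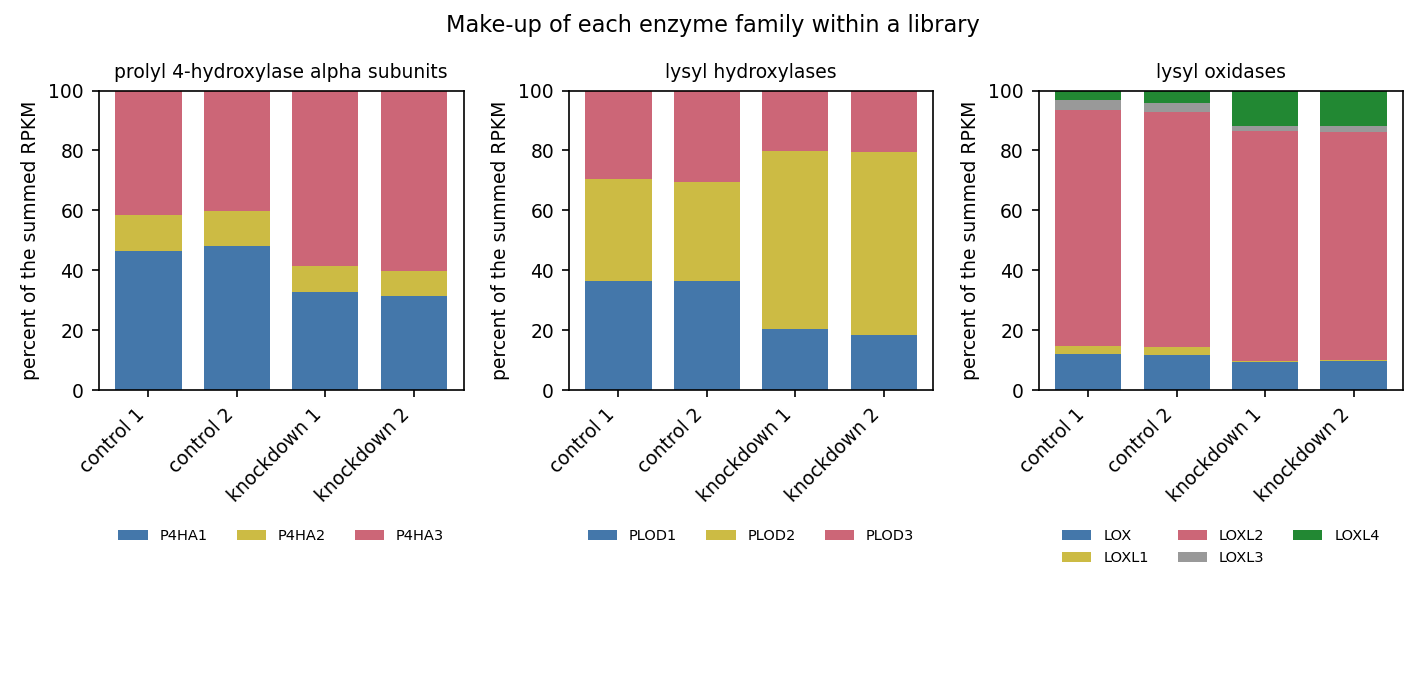
Percent of the summed RPKM held by each gene within its family, in each library, for the prolyl 4-hydroxylase alpha subunits, the lysyl hydroxylases and the lysyl oxidases. PLOD2 and P4HA3 hold the largest parts of their families in the knockdown libraries, and LOXL2 holds over 76% of the lysyl oxidase RNA in all 4.

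The other genes of collagen folding, modification and export in the endoplasmic reticulum changed in both directions. All 20 listed genes were found and 16 reached the filter, of which 5 rose and 3 fell, against 14.7% and 21.8% of all tested genes. The other 8 did not pass, and the median log2 fold change was 0.25. Leaving out any 1 library left fewer calls in each direction, in this list as over all tested genes. After median-ratio scaling 9 genes rose and 5 fell, where 31.1% of all tested genes rose and 30.0% fell. The prolyl 3-hydroxylase gene P3H2 rose 2.80-fold, from 9.91 ± 1.31 to 27.75 ± 2.03 RPKM (limma adjusted p = 8.11e-15). COLGALT1, which adds galactose to hydroxylysine, went from 52.9 ± 5.23 to 78.7 ± 4.25 RPKM (0.57, limma adjusted p = 0.00369, and 0.064 to 0.299 with any 1 library left out). FKBP10, a prolyl isomerase known to assist telopeptide lysyl hydroxylation by PLOD2, fell 2.51-fold from 14.5 ± 1.01 to 5.77 ± 0.499 RPKM (limma adjusted p = 2.11e-11). TMEM38B, a cation channel gene of the endoplasmic reticulum whose loss impairs collagen hydroxylation, fell 1.92-fold from 4.92 ± 0.632 to 2.57 ± 0.0476 RPKM (limma adjusted p = 3.44e-05). PLOD2 and FKBP10 thus moved in opposite directions. The other called genes of the list were P4HA1, the isomerase gene FKBP14 (0.55) and the coat protein gene SEC23A (0.54), which rose, and CRTAP, a partner of prolyl 3-hydroxylase, which fell by 0.56 on the log2 scale. The calls of FKBP14, SEC23A and CRTAP were lost with 1 library left out (limma adjusted p up to 0.176, 0.340 and 0.400).

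Of 22 genes of procollagen processing, cross-linking and fibril assembly outside the cell, 21 were in the table but only 7 reached the filter. There 2 rose and 1 fell, while 4 did not pass (median −0.27), where 14.7% of all tested genes rose and 21.8% fell. After median-ratio scaling 3 rose and 4 fell, where 31.1% of all tested genes rose and 30.0% fell. SPARC, a secreted collagen-binding protein gene, rose 2.55-fold to 192 ± 12.9 RPKM (limma adjusted p = 5.72e-14). BMP1, the procollagen C-proteinase gene, whose product also activates LOX, was at 3.16 ± 0.391 and 5.44 ± 0.472 RPKM (0.70, limma adjusted p = 0.000414, and up to 0.107 with 1 library left out). LTBP1, which tethers latent TGF-β to the matrix, fell 1.88-fold from 4.08 ± 0.322 to 2.17 ± 0.303 RPKM (limma adjusted p = 0.000102, and up to 0.0799 with 1 library left out). FN1 (fibronectin) was at 50.5 ± 4.46 and 61.4 ± 4.17 RPKM (0.28, limma adjusted p = 0.196). FN1 passed upward after median-ratio scaling (0.36, adjusted p = 0.000664).

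The substrates of the enzymes are the collagen chains and elastin. The table held 29 of 32 listed genes, and 11 of these reached the filter, of which 8 rose, 2 fell and 1 did not pass, against 14.7% and 21.8% of all tested genes. Leaving out any 1 library left fewer genes called higher, in this list as over all tested genes. Among the genes that rose, the log2 fold change with 1 library left out was 0.52 to 0.71 for COL4A2, 0.69 to 0.93 for COL4A1 and 0.73 to 0.95 for COL12A1. The median over the 11 tested chain genes was 0.84. After median-ratio scaling 9 rose and 2 fell, where 31.1% of all tested genes rose and 30.0% fell. COL7A1, which did not pass for RPKM as deposited, was then called higher (0.22, limma adjusted p = 0.021). The type I chain gene COL1A1 rose 2.56-fold to 28.8 ± 2.14 RPKM, and the other type I chain gene COL1A2 rose from 0.211 ± 0.0301 to 3.14 ± 0.2402 RPKM, which lets it pass the filter only through the knockdown group. COL5A1, of the fibrillar type V, rose 2.55-fold to 26.6 ± 1.85 RPKM and COL4A5, of basement membranes, 3.17-fold to 4.72 ± 0.215 RPKM. COL6A3, a microfibrillar type VI chain gene, fell 5.26-fold from 2.98 ± 0.339 to 0.567 ± 0.0197 RPKM and passed the filter only through the control group, and the transmembrane collagen gene COL13A1 fell by 0.96 on the log2 scale. ELN was below 0.03 RPKM in every library.

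Genes known to be induced by hypoxia, listed because PLOD2, P4HA1, P4HA2 and LOX answer to the same factors in other settings, mostly did not pass for RPKM as deposited. Of 25 listed, 24 were tested, of which 2 rose and 4 fell, against 14.7% and 21.8% of all tested genes. The other 18 did not pass, and the median was −0.02. With any 1 library left out there were fewer calls in each direction, in this list as over all tested genes. After median-ratio scaling 8 genes rose and 6 fell, where 31.1% of all tested genes rose and 30.0% fell. VEGFA fell 3.27-fold, DDIT4 2.02-fold and ENO2 1.70-fold (ENO2 with a limma adjusted p up to 0.123 with 1 library left out), and the glucose transporter gene SLC2A3 rose 2.66-fold, from 0.957 RPKM, passing the filter only through the knockdown group. P4HA1, which is also in the endoplasmic reticulum list, was the other gene that rose, and the enolase gene ENO1 the other that fell (−0.43, with a limma adjusted p up to 0.524 with 1 library left out).

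**Figure D4:**
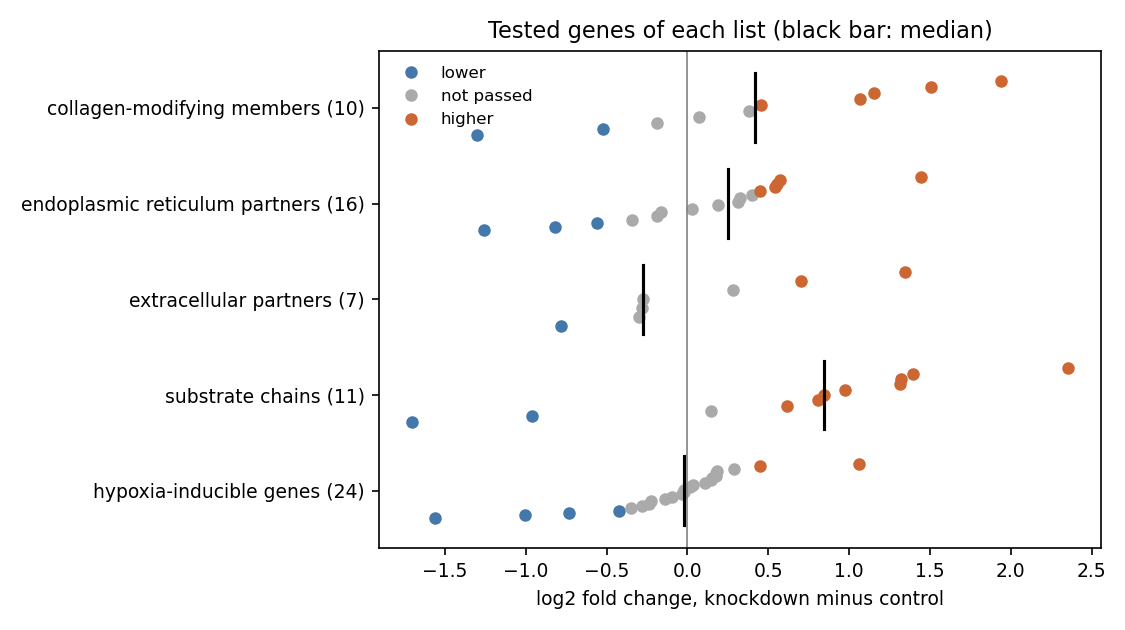
Log2 fold change (knockdown minus control) of each tested gene of the 5 lists, coloured by its limma call, with the list's median as a black bar; the number of tested genes stands after each list's name. The medians are 0.42 for the 10 collagen-modifying genes, 0.25, −0.27, 0.84 and −0.02 for the lists below them.

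The markers of collagen-making stroma did not all move in the same direction, and none reached the filter for testing. The 7 fibroblast markers summed to 0.300 and 0.389 RPKM in control libraries and to 3.07 and 3.28 RPKM in knockdown libraries, and 4 of them were below 0.1 RPKM in all libraries. LUM (0.0317 and 1.36 RPKM), PDGFRB (0.268 and 1.501 RPKM) and COL3A1 (0.0123 and 0.233 RPKM), which is also a substrate chain gene, made up most of the sum. The defining markers PDGFRA and THY1 were below 0.03 RPKM in every library. THY1 was lower in knockdown, with about 6 and 6 estimated reads in control and 2 and 4 in knockdown libraries. The groups of PDGFRA overlapped. DCN was listed at 0 in both control libraries and had about 3 and 5 estimated reads in knockdown libraries, and FAP had 1 and 1 against 6 and 11 (0.00341 and 0.0409 RPKM on average). Their part in the results was not tested. Of the 6 leukocyte and endothelial markers in the table, 4 were below 0.1 RPKM in all libraries, among them PTPRC, the general leukocyte marker. The other 2 were CD68 (27.6 and 8.22 RPKM) and CD14 (1.36 and 6.20 RPKM).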

How the data were processed

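RNA was measured by sequencing in 2 knockdown and 2 control libraries of LM2 cells. The values are RPKM, as deposited by the authors in 1 table with a column for each library. Bowtie 0.12.7 and hg19 are named in the submitters' processing notes. How reads were counted, and whether by strand, was not given in the sources used here. The table has 0 unused columns of samples. Of the 36525 gene IDs, 32172 were given current symbols. GENCODE 29 (another build, so no coordinates from it are printed) gave exon lengths and overlaps. With these lengths, 84.0% of 30139 low values (below 10 reads) were whole reads within 0.1 read, with 1 read total for both control (41.9 M) and 1 for both knockdown libraries (29.7 M). The deposited RPKM may thus lack a scaling to the depth of each library. Estimated reads were used for description only, never for a test. Between libraries of a group the mean chi-square per gene was 1.32 (control) and 1.31 (knockdown), where counting error alone gives about 1, and they were kept as separate samples.

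The 13627 genes whose mean RPKM reached 1 were tested on the log2(RPKM + 0.5) scale. The model was limma 3.58.1 (R 4.3.3) with group as its only term and a trended empirical Bayes variance, and p-values were adjusted by Benjamini-Hochberg over these genes (threshold 0.05). The code was tested on simulated data first. For RPKM as deposited, limma found no gene-to-gene spread of variance beyond the trend, so very small p-values rest on a variance shared by all genes. This does not hold after median-ratio scaling. There the limma adjusted p was 0.000781 for LOXL4 and 0.000277 for P4HA3, against 4.1e-26 and 5.44e-16 as deposited. Median SE was 0.175, and 0.054 after median-ratio scaling. Errors of means are SD (n = 2). Motifs were searched on both strands of the 250 bases before each RefSeq start.

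The members and lists were chosen with earlier results of these data known. The rule for named genes takes the 10 members, HNRNPM, P4HA1, P4HB and LOXL3, and from each list every called gene with an absolute log2 fold change of at least 1, completed to the 4 smallest p where fewer. ELN, COL13A1, FKBP14, SEC23A, CRTAP, ENO1, the marker genes and the genes that overlap or neighbour a member were named after their values were seen. Genes of the lists that are not in the table were not analysed here.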

Additional observations from a re-analysis of the deposited data

How the results depend on the processing

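With RPKM as deposited, 5 of the 10 genes rose and 2 fell. Partner genes are here the endoplasmic reticulum, extracellular, substrate and hypoxia lists pooled (16, 7, 11 and 24 tested genes), with P4HA1 counted once. Of these, 16 rose and 10 fell, where 14.7% and 21.8% of all tested genes did. P4HA3 and LOXL1 passed under every alternative that tested them, and PLOD2, SERPINH1 and LOXL4 under all but 1: without a filter on low values their adjusted p was 0.0527, 0.0544 and 0.0528, in a fit where HNRNPM itself reached 0.0445. That fit called 1 member higher and 1 lower, 3 partner genes higher and 3 lower, and 262 genes higher and 255 lower overall. At a mean RPKM of at least 5, LOXL1 and P4HA2 were no longer tested, which left 1 member lower and a median of 0.72 over the members, and 1047 genes were higher and 1321 lower. Median-ratio scaling gave 4235 genes higher (31.1%) and 4083 lower (30.0%), and 28 partner genes higher and 17 lower. Upper-quartile scaling gave 3860 genes higher and 4432 lower, and 26 partner genes higher and 19 lower. With the replicate number as a block, 3109 genes were higher and 17 partner genes lower, 6 members were higher because LOXL2 passed, and no other member's call changed. The correlation of same-numbered deviations was 0.0307 over 13627 genes, so the numbers were not treated as pairs. Leaving out 1 library gave 759 to 1158 genes higher and 1057 to 2007 lower, 4 members higher and 1 lower each time, and 8 to 12 partner genes higher and 6 to 8 lower. The log2 fold change of LOX ranged from −0.0181 to 0.166 when 1 library was left out, and changed sign to −0.0179 without control replicate 1 and to −0.0181 without knockdown replicate 2, passing in neither case. Depth limits LOXL1 most, with about 45 to 51 estimated reads per knockdown library. The causes were not tested.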

Other observations

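The modifying genes were set against their fibrillar substrates within each library, as RPKM divided by the summed RPKM of COL1A1, COL1A2, COL5A1 and COL5A2 (a sum chosen after its values were seen). That sum was 22.1 ± 2.53 RPKM in control and 59.0 ± 4.26 RPKM in knockdown cells. Per unit of chain RNA, P4HA3 was at 0.407 and 0.386 in control and at 0.430 and 0.441 in knockdown libraries, and LOXL4 at 0.110 and 0.133 against 0.195 and 0.199. PLOD2 was at 0.566 and 0.551 against 0.475 and 0.476, and SERPINH1 at 1.05 and 1.00 against 0.806 and 0.819. Both were thus lower relative to this sum although their own levels were higher (2.28-fold and 2.12-fold). That direction depends on which chains are chosen. Among the other tested chain genes, COL4A1 (1.79-fold), COL4A2 (1.55-fold), COL8A1 (1.996-fold) and COL12A1 (1.86-fold) rose less than PLOD2 and SERPINH1. COL4A5 rose more (3.17-fold), COL7A1 did not pass for RPKM as deposited, and COL6A3 and COL13A1 fell. The ratio of LOXL2 was 2.61 and 2.59 against 1.27 and 1.26, and that of P4HB 4.86 and 4.78 against 2.25 and 2.26. None of the ratios to the sum was tested.

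The gene neighbours of the 10 genes (nearest tested gene on each side in RefSeq order, GRCh38.p14) included 4 that rose, 3 that fell and 13 that did not pass, of 20, against 14.7% and 21.8% of all tested genes. Both neighbours of PLOD2 rose, DIPK2A by 1.04 and the scramblase family gene PLSCR4 by 1.18 (limma adjusted p = 6.68e-08 and 1.65e-09), close to PLOD2's own log2 fold change of 1.16. The other neighbours that rose were PPME1, beside P4HA3, and P4HA2-AS1, beside P4HA2. P4HA3 and SERPINH1 both lie on chromosome 11, with 9 tested genes between them, of which 0 rose and 1 fell (limma, median 0.01). Between LOX and P4HA2, both on chromosome 5, lie 23 tested genes, of which 8 rose and 3 fell (median 0.21). Both neighbours of LOXL4 fell, R3HCC1L by 1.11 and HPS1 by 0.42 on the log2 scale (limma adjusted p = 4.74e-08 and 0.0466), while LOXL4 rose. Whether neighbouring genes changed together was not tested.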
